A study of Drosophila melanogaster with 12 samples.

Results

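Enteroblasts (EBs) purified from Drosophila melanogaster guts under Hey RNAi were set against whole control guts, to ask whether progenitors that lose Hey approach the profile of the mature tissue or take on levels found in neither control. The comparison was defined by the sample labels alone and used the 3 Hey RNAi EB and the 3 control gut arrays, 6 of the 12 arrays of the series. In the Hey RNAi EBs, dHey-Gal4 drove a UAS-dHey RNAi transgene, and by the study's methods the same cells carried UAS-mCD8GFP as the surface tag for their purification. Control EBs, 3 arrays used here only to place the Hey RNAi EBs, carried dHey-Gal4, the tag and UAS-GFP. In control guts, Myo-GAL4 drove UAS-GFP, and the tissue was not sorted. All flies were adult females that had grown up at 18 °C and spent their last 2 days at 29 °C. The sample records give an age of 2 to 4 days at this shift for all groups. The methods differ for EBs. There, females were collected at 2 to 4 days and aged for further days at 18 °C before the shift. By that account they were older than the gut donors.

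The midgut epithelium is renewed by intestinal stem cells. Their daughters, the EBs, receive a Notch signal and mature into enterocytes, large polyploid cells that secrete digestive enzymes and take up nutrients, while a separate branch gives hormone-secreting enteroendocrine cells. Hey is a basic helix-loop-helix protein of the HES-related family, whose members are known as transcriptional repressors and, in many tissues, as targets of Notch. The dHey-Gal4 driver was described as active mainly in EBs and weakly in stem cells, and the purified fractions were enriched, not pure. Cell type, driver, purification, age and Hey RNAi differed together between Hey RNAi EBs and control guts and cannot be told apart in this comparison. In such bulk samples, fewer cells of a type and less RNA per cell cannot be told apart either.

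RNA was measured with 4 probes per transcript for 15473 transcripts. Of these, 44 (0.284%) could be paired with a gene symbol, and the Hey transcript was not among them, so the targeted gene was not analysed here. None of the listed markers of enterocytes, progenitors, enteroendocrine cells, muscle, hemocytes, fat body or germ line could be paired, so the labelled tissues were not checked against markers. Median deposited intensities were 689.2 to 760.7 units in Hey RNAi EBs and 555.5 to 854.2 units in control guts. The lowest intensity was 29.7 units on Hey RNAi EB 1 and 30.5 units on control EB 1, against 7.78 to 14.4 units on the other 10 arrays. The part of this raised floor in the results was not tested. Counts without Hey RNAi EB 1 are given beside the counts of transcripts that passed, lay in neither control or came near gut level.

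Hey RNAi EBs remained far from control guts. On the log2 scale, Hey RNAi EB arrays correlated with control guts across transcripts at r = 0.809 to 0.815 for replicate 1, 0.849 to 0.862 for replicate 2 and 0.862 to 0.866 for replicate 3. Among themselves, the Hey RNAi EB arrays correlated at 0.933 to 0.959 and the control guts at 0.985 to 0.987. Transcripts are not independent replicates, and these values describe the arrays only. The median SD over transcripts was 0.41 log2 units in Hey RNAi EBs and 0.19 log2 units in control guts, with the larger SD in Hey RNAi EBs for 79.7% of transcripts.

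In all, 4922 of the 15473 transcripts (31.8%) passed a Benjamini-Hochberg adjusted p under 0.05 in limma with at least a 2-fold change. In Hey RNAi EBs, 2530 (16.4%) were higher and 2392 (15.5%) lower than in control guts. The falls were larger than the rises. The median log2 change was 1.60 among transcripts that rose and -2.12 among those that fell, beside 0.19 over all transcripts. At least 4-fold changes were seen for 746 that rose and 1316 that fell, at least 16-fold changes for 49 and 288, and at least 64-fold changes for 5 and 34. Without Hey RNAi EB 1, 5203 transcripts passed, 2736 of them higher. The excess of falls at 4-fold or more held in each of the 18 other settings tried. Some of these leave the fold changes as they were, and with no fold limit the counts are the same by definition. The settings are therefore not separate checks. The largest rise was a log2 change of 7.04, and the largest fall one of -8.25. With no further normalization or with median centring, the median of all transcripts moved to 0.36 and 0.35, so a change near the 2-fold limit depends on the scaling.

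The individual Hey RNAi EB arrays showed this difference to a similar extent. The transcripts were chosen on these same arrays, so some of this likeness is built in by the choice. Measured from the mean of the control guts, the median log2 change of the 2530 risen transcripts was 1.67, 1.60 and 1.61 in Hey RNAi EB 1, 2 and 3. For the 2392 fallen transcripts it was -2.31, -2.13 and -2.0. All 3 Hey RNAi EB arrays lay above all 3 control guts for 2528 of the 2530 and below them for 2390 of the 2392, while the arrays of both groups were also free of overlap for 55.3% of all transcripts (31.4% higher and 23.9% lower in Hey RNAi EBs). Calls were fewest among dim transcripts. Of the 3868 transcripts with mean log2 levels up to 6.80, 4.68% were higher and 5.14% lower in Hey RNAi EBs. Of the 3868 with levels of 9.49 to 11.66, 27.5% were higher and 21.6% lower, and of the 3869 brighter still, 15.7% and 16.1%. For 14.9% of the risen and 23.7% of the fallen transcripts, the dimmer group lay under the 25th percentile of control gut levels, so that the size of those changes rests on levels near the dimmest. As for transcripts that stayed close, 3651 (23.6%) had a 95% interval of the change wholly within 1 log2 unit of 0. Another 6900 (44.6%) neither passed the threshold nor had so narrow an interval, and nothing is said of those.

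**Figure D1:**
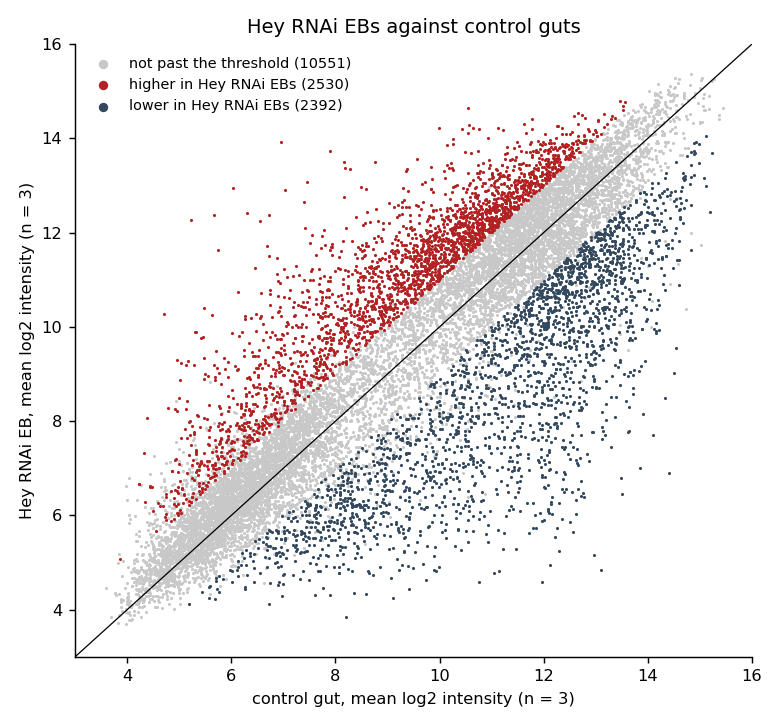
Mean log2 intensity of each of 15473 transcripts in Hey RNAi EBs (vertical axis) and control guts (horizontal axis), 3 arrays each, quantile normalized over the 6 arrays; the line marks equal levels. The 2392 transcripts that fell spread farther from the line than the 2530 that rose.

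Of the 44 transcripts with a symbol, 16 passed the threshold (36.4%, against 31.8% of all transcripts), 10 higher and 6 lower in Hey RNAi EBs. Over all 44, the median log2 change was 0.49, and the changes ran from -3.67 to 2.16. For 27 of the 44, the array identifier belongs to more than 1 gene, genes that share 1 RNA, and their level cannot be assigned to either gene. Such transcripts are written here with both symbols.

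The transcript of sle, which encodes a nucleolar protein, had log2 intensities of 12.68, 13.08 and 12.72 in Hey RNAi EBs, against 10.57, 10.64 and 10.78 in control guts. The groups lay well apart, and the log2 change of 2.16 ± 0.19 (SE; limma adjusted p = 0.000517) was the largest rise among the 44. Polr3K/Tcs1 couples a subunit of RNA polymerase III with an enzyme that modifies tRNA. It had 10.99, 11.62 and 11.35 in Hey RNAi EBs, against 9.47, 9.67 and 9.41 in control guts, and rose by 1.80 ± 0.22 log2 units (SE; limma adjusted p = 0.00132). CG31917/Tfb5 includes a subunit of the transcription and repair factor TFIIH. It reached 13.61, 13.35 and 13.45 in Hey RNAi EBs, against 12.19, 12.12 and 11.96 in control guts, and rose by 1.38 ± 0.18 log2 units (SE; limma adjusted p = 0.00154). Smaller rises were seen for PIG-P/Tcs6, which pairs a gene of GPI anchor synthesis with a tRNA modification factor (1.12 ± 0.20 log2 units, SE; limma adjusted p = 0.00512), and for CG7950/Rpp14a, which includes a subunit of RNase P (1.02 ± 0.19, SE; limma adjusted p = 0.00566). Both of these lay near the 2-fold limit and were under it, at 0.91 and 0.93, when the arrays were merely centred on their medians. CG7950/Rpp14a was also under it without control gut 3 (0.92) or Hey RNAi EB 3 (0.98).

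Of the others that rose, lmgA/lmgB, which encodes a subunit of the anaphase-promoting complex, had log2 intensities of 11.43, 11.30 and 11.11 in Hey RNAi EBs, against 9.69, 9.84 and 9.60 in control guts. It changed by 1.57 ± 0.18 log2 units (SE; limma adjusted p = 0.0011), with no overlap between the groups. Rad1/Sws1 includes a part of the checkpoint clamp that is loaded at damaged DNA. It had 8.98, 9.77 and 9.49 in Hey RNAi EBs, against 7.79, 7.88 and 8.22 in control guts, and rose by 1.45 ± 0.26 log2 units (SE; limma adjusted p = 0.00564). The remaining risen transcripts with symbols of no role stated here were CG32573/CG42512 (1.71 ± 0.24 log2 units, SE; limma adjusted p = 0.00216) and CG30100/CG42372 (1.20 ± 0.18, SE; limma adjusted p = 0.00295).

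LanA, an alpha chain of the laminins that build the basement membrane, had log2 intensities of 13.06, 12.85 and 12.69 in Hey RNAi EBs, against 11.33, 11.08 and 11.79 in control guts. It was the only gene of the 10 listed basement membrane genes that could be paired with a transcript. The groups did not overlap, and the log2 change was 1.47 ± 0.24 (SE; limma adjusted p = 0.00402).

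The 2 largest falls among the 44 were those of NaPi-III and Fatp1. NaPi-III, a phosphate transporter, had log2 intensities of 5.89, 7.15 and 6.52 in Hey RNAi EBs, against 10.07, 10.16 and 10.33 in control guts, and its change was -3.67 ± 0.33 log2 units (SE; limma adjusted p = 0.000537). In Hey RNAi EBs it was brighter than just 22% of transcripts, so the size of this fall rests on a low level there. Fatp1, which takes up and activates long-chain fatty acids, had 9.86, 10.51 and 10.74 in Hey RNAi EBs, against 13.29, 13.29 and 12.97 in control guts. Its log2 change of -2.81 ± 0.27 (SE; limma adjusted p = 0.000669) was measured well above the dimmest levels, with 58% of transcripts dimmer in Hey RNAi EBs. CG17325/CG42305 (-2.54 ± 0.25 log2 units, SE; limma adjusted p = 0.000648), CG16974 (-1.68 ± 0.20, SE; limma adjusted p = 0.0011) and CG45088/CG6191 (-1.65 ± 0.19, SE; limma adjusted p = 0.000989) fell with no overlap between groups. CG17325/CG42305 was brighter than just 2.59% of transcripts in Hey RNAi EBs, and its change was -1.29 with a pseudocount of 64, so its size depends on the dimmest levels. Of the 16, CG31178 varied most among the Hey RNAi EBs, with 4.46, 7.06 and 5.74, against 7.69, 7.88 and 7.72 in control guts. Its call (-2.01 ± 0.61 log2 units, SE; limma adjusted p = 0.0397) did not hold when control gut 1, 2 or 3 or Hey RNAi EB 3 was left out (limma adjusted p = 0.084 to 0.112), and the change was -1.14 with a pseudocount of 64.

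**Figure D2:**
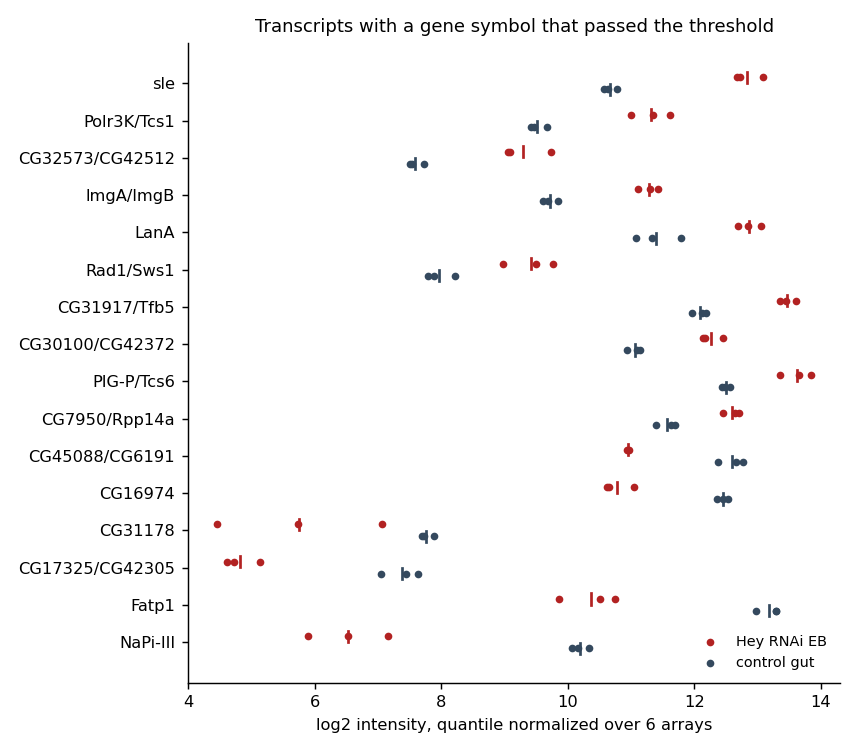
Log2 intensity on each of the 3 Hey RNAi EB arrays and the 3 control gut arrays for the 16 transcripts with a gene symbol that passed the threshold, ordered by their change; short bars mark group means. Hey RNAi EBs and control guts do not overlap for any of the 16, and the changes run from -3.67 (NaPi-III) to 2.16 (sle).

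Over all 15473 transcripts, 6293 had a limma adjusted p under 0.05 at any fold, 3505 of them higher in Hey RNAi EBs. Of the 6293, 4922 also passed the 2-fold limit, 2530 of them higher. Among the 44, a further 8 had an adjusted p under 0.05 but stayed under the 2-fold limit, 7 of them higher in Hey RNAi EBs. Among them were the histone deacetylase HDAC3 (0.81 ± 0.20 log2 units, SE; limma adjusted p = 0.0176) and the protein kinase Dyrk3 (0.97 ± 0.25, SE; limma adjusted p = 0.0219). Dyrk3 passed the limit without control gut 3 (1.13), Hey RNAi EB 1 (1.03) or Hey RNAi EB 3 (1.10). Wdr24, part of GATOR2, an activator of the growth kinase TORC1, was the only transcript of these 8 with a lower level in Hey RNAi EBs, at -0.60 ± 0.20 (SE; limma adjusted p = 0.0494). Its partner in GATOR2, mio, had a log2 change of -0.02 with a 95% interval from -0.50 to 0.47. Of all transcripts that did not pass, 3651 had a 95% interval within 1 log2 unit of 0 and 6900 did not. For 10 of the 28 symbols that did not pass, the interval lay within 1 log2 unit of 0. These included the ubiquitin-activating enzyme Uba1 (0.10, from -0.47 to 0.67), Mocs2A/Mocs2B, which make up molybdopterin synthase (0.17, from -0.26 to 0.61), and moi/Tgs1, which pairs a telomere protein with an RNA cap methylase (0.17, from -0.31 to 0.65).

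The Hey RNAi EBs were then placed against both controls. For this, the 9 arrays of Hey RNAi EBs, control EBs and control guts were quantile normalized together, and the distance of each EB array from the mean control gut was taken as the root mean square log2 difference over all transcripts. Hey RNAi EBs lay at 1.70, 1.5 and 1.44 log2 units from the control gut, and control EBs at 1.31, 1.64 and 1.35. Both groups overlapped. The mean distance was 1.55 ± 0.14 (SD, n = 3) for Hey RNAi EBs and 1.43 ± 0.18 (SD, n = 3) for control EBs, a difference of 0.12 log2 units (two-sided exact permutation test, p = 0.5, where 3 arrays against 3 cannot go below 0.1). The measured mean distance was thus not shorter in Hey RNAi EBs, and a difference between the groups was not detectable with 3 arrays each. Without Hey RNAi EB 1, the farthest array, the difference was 0.0386, and without control EB 2 it was 0.216.

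Position along the line from control EBs to control guts gave a similar picture. On a scale where the mean control EB is 0 and the mean control gut is 1, Hey RNAi EBs lay at 0.06, 0.17 and 0.25. Control EBs, each measured against a line made without it, lay at 0.25, -0.12 and 0.11, and control guts at 0.99, 0.99 and 0.93. The positions of Hey RNAi EBs, 0.16 ± 0.10 (SD, n = 3), therefore fell among those of control EBs, 0.08 ± 0.18 (SD, n = 3). Away from this line the groups parted. The distance off the line was 1.13, 0.98 and 1.03 log2 units for Hey RNAi EBs, 0.71, 0.80 and 0.53 for control EBs, and 0.39, 0.40 and 0.42 for control guts. Along the line, the distance was 0.08, 0.23 and 0.34 log2 units for Hey RNAi EBs and 0.36, 0.15 and 0.15 for control EBs. The part off it was larger in both groups. Among so many transcripts, most of any deviation can fall off a single line. Hey RNAi EBs were also measured from the mean of another group, and control EBs from the others of their own. No direction of change is therefore read from these distances. The distances off the line include the spread between arrays, whose median SD was 0.41 log2 units in Hey RNAi EBs and 0.35 in control EBs, and the values are given with no test.

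**Figure D3:**
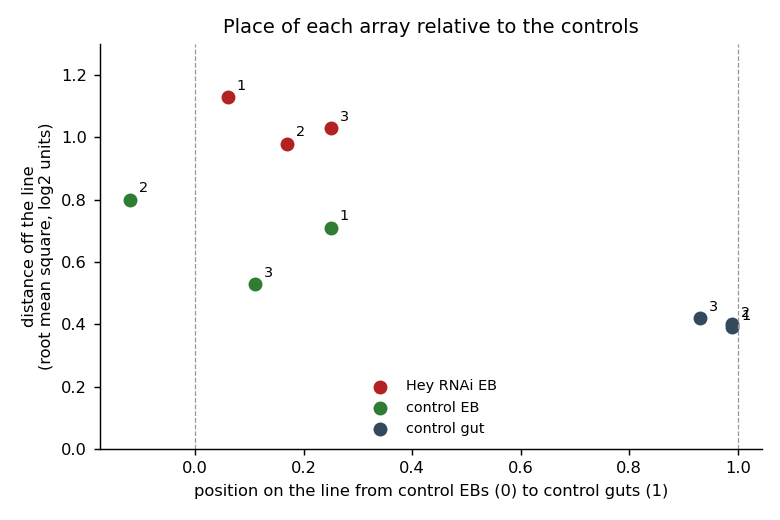
Position of each array on the line from control EBs (0) to control guts (1), horizontal axis, and its root mean square distance from that line in log2 units, vertical axis, with replicate numbers beside the points. The 3 Hey RNAi EB arrays lie at positions of 0.06 to 0.25, among the control EBs, and 0.98 to 1.13 log2 units off the line, above every control array. The line is made by the control groups and not by Hey RNAi EBs, so the distances off it are not alike and no direction is read from them.

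Most transcripts that set Hey RNAi EBs apart from control guts also set control EBs apart from them. In a fit of their own, control EBs differed from control guts in 29.8% of all transcripts, 16.1% higher and 13.7% lower. The counts that follow share the control guts or the Hey RNAi EBs between comparisons, and the transcripts were chosen on the same arrays, so they are descriptions. Of the 2530 transcripts higher in Hey RNAi EBs, all 3 control EBs lay above all 3 control guts for 1909 (75.5%), overlapped them for 570 and lay below them for 51. The median level of the 2530 was 11.35 to 11.53 on the Hey RNAi EB arrays, 10.65 to 10.84 on the control EB arrays and 9.42 to 9.49 on the control guts. Of the 2392 transcripts lower in Hey RNAi EBs, control EBs lay below all control guts for 1878 (78.5%), overlapped them for 446 and lay above them for 68. Median levels of the 2392 were 8.38 to 9.17 on Hey RNAi EBs, 8.98 to 9.86 on control EBs and 11.72 to 11.84 on control guts. Over all transcripts, control EBs lay above all control guts for 35%, overlapped them for 42.8% and lay below them for 22.2%. The mean of Hey RNAi EBs was nearer to the control gut than the mean of control EBs for 6990 of the 15473 transcripts (45.2%).

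Transcripts with levels in neither control were those that passed the threshold in the same direction against control guts and, in a fit of the 6 EB arrays, against control EBs. There were 404 higher than both controls (2.61% of the 15473) and 371 lower than both (2.4%), 775 in all (5.01%). Against control EBs alone, 8.5% of transcripts passed, 580 (3.75%) higher and 735 (4.75%) lower in Hey RNAi EBs. The 404 made up 16% of those higher than control guts and 69.7% of those higher than control EBs, and the 371 made up 15.5% and 50.5% of those lower. On the individual arrays, the median log2 level of the 404 was 11.91, 11.88 and 11.87 in Hey RNAi EBs, 9.82, 10.18 and 10.07 in control EBs and 9.37, 9.21 and 9.42 in control guts. For the 371 it was 9.07, 9.61 and 9.25 in Hey RNAi EBs, 11.27, 11.32 and 11.18 in control EBs and 11.65, 11.65 and 11.63 in control guts. The controls were not called apart from each other for 296 of the 404 (73.3%) and 300 of the 371 (80.9%), beside 70.2% of all transcripts. At least 4-fold differences from both controls were reached by 109 that rose and 101 that fell. The number of such transcripts depended on single EB arrays. It was 212, 151 and 121 without control EB 1, 2 and 3 and 602, 525 and 133 without Hey RNAi EB 1, 2 and 3. With no further normalization it was 271, and in 1 fit of all 12 arrays 1392. Median centring gave 125 higher and 215 lower, so that which direction held more of them also depended on the scaling.

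**Figure D4:**
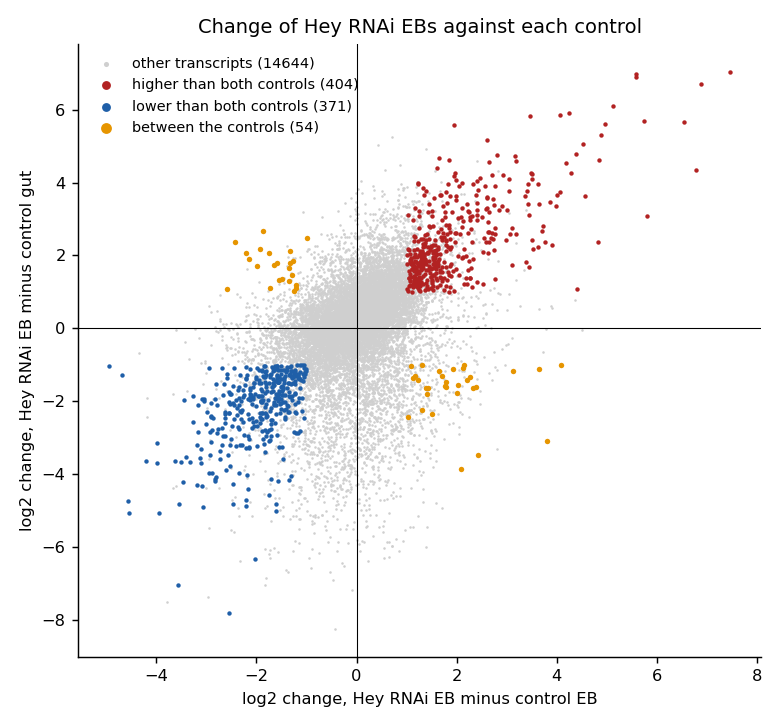
Log2 change of Hey RNAi EBs against control guts (vertical axis) and against control EBs (horizontal axis) for 15473 transcripts. Both axes share the Hey RNAi EB arrays, which by itself tilts the cloud upwards. Coloured points passed the threshold on both axes, 404 higher than both controls, 371 lower than both and 54 between them. A place between them needs controls that lie far apart, so the 54 are not comparable with the other counts.

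Of those without a symbol, 2 in each direction are named by their identifiers. They had the largest changes, going by the smaller of each transcript's differences from both controls, among transcripts with every group mean at or above the 25th percentile. FBtr0079154 had log2 levels of 13.72, 14.10 and 14.09 in Hey RNAi EBs, 7.86, 8.97 and 8.21 in control EBs and 6.73, 6.97 and 7.18 in control guts. It rose by 6.97 ± 0.22 log2 units against control guts (SE; limma adjusted p = 4.93e-05) and by 5.58 ± 0.32 against control EBs (SE; limma adjusted p = 0.00117). FBtr0070267 had 12.87, 13.34 and 13.11 in Hey RNAi EBs, 7.04, 8.84 and 8.41 in control EBs and 7.15, 7.08 and 8.06 in control guts. Its rises were 5.61 ± 0.33 (SE; limma adjusted p = 0.000182) and 4.97 ± 0.44 (SE; limma adjusted p = 0.00411). Both thus stood among the brighter transcripts in Hey RNAi EBs, brighter than 97.9% and 92.2% of all. On every control array they lay below the median of all transcripts, 9.42. Control EBs were themselves higher than control guts by 1.40 ± 0.32 log2 units for FBtr0079154 (SE; limma adjusted p = 0.0132). For FBtr0070267 that difference was 0.69 (limma adjusted p = 0.322). In control guts the 2 transcripts were brighter than just 28.3% and 34.1%, so the size of their rises against control guts rests on low levels there. With a pseudocount of 64, the rises against control guts were 6.35 and 5.14. In the other direction, FBtr0074448 had 7.84, 9.45 and 8.12 in Hey RNAi EBs, 12.59, 12.52 and 12.30 in control EBs and 12.28, 12.22 and 12.28 in control guts. It fell by 3.69 log2 units against control guts (limma adjusted p = 0.00106) and fell by 3.99 against control EBs (limma adjusted p = 0.00706). FBtr0088591 had 7.24, 9.85 and 10.04 in Hey RNAi EBs, of which replicate 1 was the lowest, 13.24, 13.84 and 13.94 in control EBs and 13.77, 13.88 and 13.98 in control guts. It fell by 4.75 log2 units against control guts (limma adjusted p = 0.00307) and fell by 4.57 against control EBs (limma adjusted p = 0.019), and the call against control EBs was lost without control EB 1, 2 or 3 (limma adjusted p up to 0.0753).

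Of the 44 transcripts with a symbol, 3 had levels in neither control, beside 775 (5.01%) of all transcripts. Fatp1, described above, had 9.81, 10.50 and 10.74 in Hey RNAi EBs, 12.48, 12.13 and 12.12 in control EBs and 13.33, 13.33 and 13.01 in control guts. Control EBs were themselves lower than control guts by 1.01 log2 units (limma adjusted p = 0.00729), and Hey RNAi EBs were lower than control EBs by a further step, at -1.89 ± 0.31 log2 units (SE; limma adjusted p = 0.0208). The order of this transporter was therefore Hey RNAi EB, control EB, control gut, from low to high, with no overlap between neighbours. CG31917/Tfb5 had 13.65, 13.40 and 13.49 in Hey RNAi EBs, 12.29, 12.25 and 12.42 in control EBs and 12.22, 12.15 and 11.98 in control guts. It was 1.17 ± 0.21 log2 units higher than in control EBs (SE; limma adjusted p = 0.0256), while the controls differed by 0.21 (limma adjusted p = 0.341). CG32573/CG42512 had 9.67, 8.95 and 8.98 in Hey RNAi EBs, 7.54, 6.59 and 7.44 in control EBs and 7.67, 7.50 and 7.47 in control guts, and its change against control EBs was 1.87 ± 0.35 (SE; limma adjusted p = 0.0274). The calls of these 3 against control EBs rested on the full set of EB arrays. With each of the 6 EB arrays left out in turn, the call held in 2 fits for Fatp1, 0 for CG31917/Tfb5 and 1 for CG32573/CG42512. Those of CG31917/Tfb5 and CG32573/CG42512 were also lost with no further normalization and with median centring.

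A smaller number of transcripts, which varied widely with the settings, was measured near the level of the gut. Of the 1315 called between Hey RNAi EBs and control EBs, 486 were not called against control guts. For 183 of these the 95% interval of the difference from control guts lay within 1 log2 unit of 0, 50 after a rise and 133 after a fall relative to control EBs. Such an interval was held by 3651 of all 15473 transcripts (23.6%), a larger share than 183 of the 1315. In 140 of the 183, control EBs were called apart from control guts, which the definition favours. The median level of the 50 was 10.86, 11.02 and 10.77 in Hey RNAi EBs, 9.43, 9.29 and 9.40 in control EBs and 10.78, 10.51 and 10.53 in control guts. For the 133 it was 9.58, 9.83 and 9.47 in Hey RNAi EBs, 10.97, 11.19 and 10.97 in control EBs and 9.73, 9.87 and 9.70 in control guts. SuUR, which restrains replication of heterochromatin in polyploid cells, was 1 of the 133. It had 11.75, 12.15 and 11.34 in Hey RNAi EBs, 13.43, 13.12 and 12.77 in control EBs and 11.78, 11.79 and 12.06 in control guts. Hey RNAi EBs were below control EBs, at -1.33 ± 0.30 log2 units (SE; limma adjusted p = 0.0441) and overlapped control guts (-0.13, 95% interval from -0.74 to 0.48). The call of SuUR against control EBs was lost without any 1 of the 6 EB arrays (limma adjusted p up to 0.132), with no further normalization and with median centring. The count of 183 was 11 with no further normalization, 34 with median centring and 374 in 1 fit of all 12 arrays. It was 125, 57 and 10 without Hey RNAi EB 1, 2 and 3, 27, 17 and 23 without control EB 1, 2 and 3, and 118 without either control gut 1 or 2.

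Of the 15473 transcripts, 54 were called against both controls in opposite directions. Such a transcript lies at least 2-fold from each control on opposite sides, so the controls must themselves lie far apart. A low count is thus favoured by the definition and is not comparable with the 775 in neither control, which need no such gap. Hey RNAi EBs were higher than control guts but lower than control EBs for 23 transcripts and lower than control guts but higher than control EBs for 31. LanA belonged to the 23. It had 13.10, 12.89 and 12.73 in Hey RNAi EBs, 14.22, 14.28 and 14.13 in control EBs and 11.34, 11.09 and 11.82 in control guts, with no overlap between any of the groups. Hey RNAi EBs were below control EBs, at -1.28 ± 0.22 log2 units (SE; limma adjusted p = 0.0213), a call lost without control EB 1, 2 or 3 or Hey RNAi EB 2 or 3 (limma adjusted p up to 0.088) and with no further normalization (limma adjusted p = 0.0549). Wdr24 was below both controls, with 10.54, 10.45 and 10.07 in Hey RNAi EBs, 11.63, 11.96 and 11.29 in control EBs and 10.96, 11.08 and 10.91 in control guts. It passed the 2-fold limit against control EBs (-1.28 ± 0.27 log2 units, SE; limma adjusted p = 0.0377) but not against control guts, and the call was lost without any 1 of the 6 EB arrays, with no further normalization (limma adjusted p = 0.0986) and with median centring (limma adjusted p = 0.0781).

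**Figure D5:**
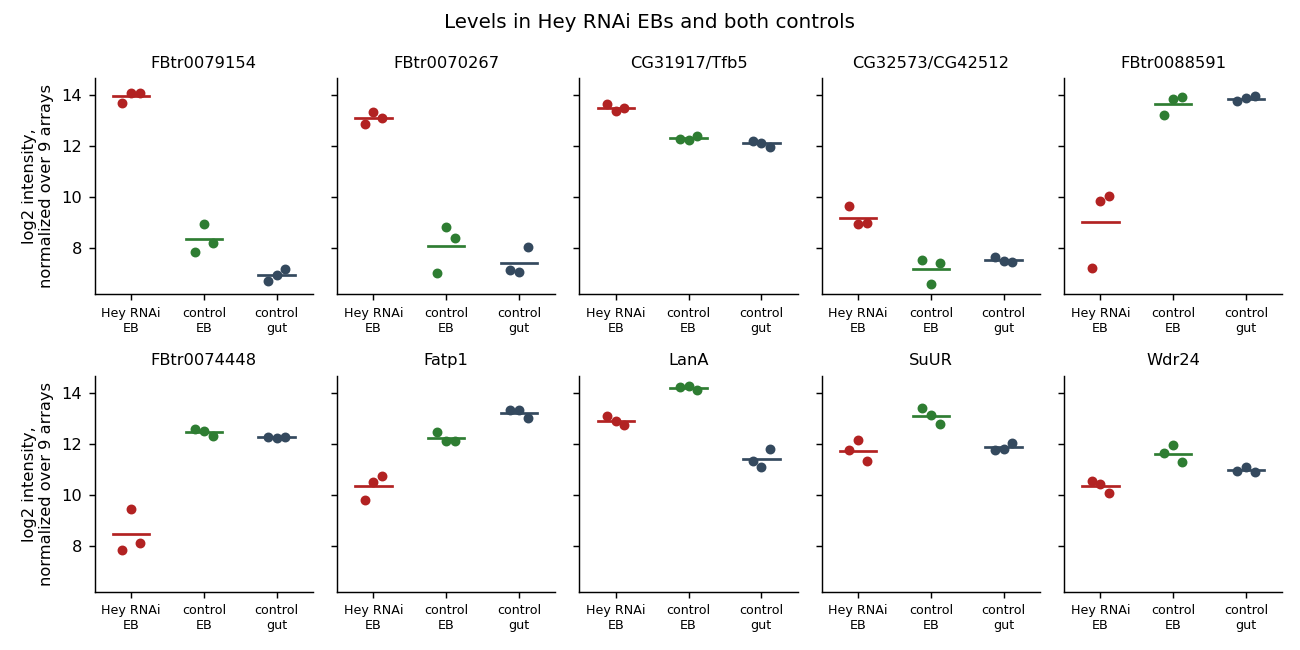
Log2 level on each array of Hey RNAi EBs, control EBs and control guts (3 each, quantile normalized over these 9 arrays; bars are means) for 10 transcripts. FBtr0079154, FBtr0070267, CG31917/Tfb5 and CG32573/CG42512 lie above both controls in Hey RNAi EBs, FBtr0088591, FBtr0074448, Fatp1 and Wdr24 lie below both, LanA lies between the controls and SuUR overlaps control guts.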

How the data were processed

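The authors hybridised amplified, Cy3-labelled RNA to NimbleGen arrays, read them out with NimbleScan and analysed them in ArrayStar, and the submitters' processing notes name RMA. The values deposited in the matrix are linear intensities, 1 for each transcript on each array. The linear scale was read from the values, and which of these steps they had passed is not given in the sources used here. Array means differed, so log2 intensities of the 6 arrays compared were quantile normalized and fitted alone in limma 3.58.1 (R 4.3.3; lmFit, eBayes; 4 residual and 2.45 prior degrees of freedom). The threshold was that of the study's methods, a change of at least 2-fold with an adjusted p (Benjamini-Hochberg, all 15473 transcripts) under 0.05. Nothing was filtered out. Hey RNAi EBs against control EBs and control EBs against control guts were each fitted the same way on their own 6 arrays. Levels set beside both controls come from a normalization over 9 arrays and the changes beside them from the 6-array fits, so that they can differ slightly. The methods describe replicates as independent crosses. The number of arrays limits the precision of every value.

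Symbols came from the synonyms of a RefSeq gene table, where 9 identifiers stood alone and 35 inside a longer synonym. Of 240 listed symbols of pathways and cell types, 3 were paired, so lists were not tested. Named are all transcripts with a symbol and, without one, 2 that rose and 2 that fell, with every group mean at or above the 25th percentile and no overlap. The transcripts that came to gut level were defined after the values were seen. The comparison, the lists and the tests were chosen with earlier results of these data known. The calls were tried on simulated data with far fewer changed transcripts than passed here and with no pairing of arrays. That trial does not show how they perform on data like these. The authors' workbooks hold their own folds and test values for other comparisons and were not used. Same-numbered Hey RNAi EB and control EB arrays deviated together from their group means (r = 0.184, 0.321 and 0.132). EB arrays may thus be paired by number, which is read from the data and not from the labels. The main fits and the permutation test left this out, and a fit with this block is given among the alternatives. The others changed the arrays fitted, the normalization, a pseudocount of 64, a filter on the dimmest 1 in 3 transcripts, the variance model, array weights, the intensity sets as a block and the fold limit, and left out each array in turn.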

Additional observations from a re-analysis of the deposited data

How the results depend on the processing

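The count of 4922 transcripts and both directions of it stayed within 1.5 times of the values given under all alternatives, from 4314 with the filter on dim transcripts to 6293 with no fold limit, and from 4132 to 5298 with 1 array left out (2148 to 2764 higher, 1980 to 2534 lower). Transcripts in neither control numbered 1392 (710 higher, 682 lower) in 1 fit of all 12 arrays, 271 (149 higher, 122 lower) with no further normalization, and 340 (125 higher, 215 lower) with median centring, where falls outnumbered rises. Leaving out 1 array gave 121 to 731 (73 to 392 higher, 45 to 339 lower). The 183 transcripts at gut level became 374, 11 and 34 in the same 3 settings and 10 to 127 with 1 array left out. The cause was not tested in any of these settings. Leaving out 1 array also leaves fewer arrays to fit. The difference in distance ran from 0.0386 to 0.216 and the position from 0.11 to 0.23 with 1 array left out. These fits share most of their arrays, and control EBs themselves had a mean position of 0.08 ± 0.18 (SD, n = 3). No shift is therefore read from values that stay above 0.

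With the replicate number as a block, 4896 transcripts passed and 855 lay in neither control, and with the block and no further normalization 5156 passed. Against control EBs, 1515 passed with the block, among them 1113 of the 1315, and it changed no call among the 48 named transcripts there. Same-numbered Hey RNAi EB and control gut arrays deviated from their group means with r = 0.169, -0.0895 and -0.0668, and 1 of 3 Hey RNAi EB arrays correlated best with its own number, so they share only a number. Arrays fell by mean deposited intensity into sets, of which only 1 held both groups, Hey RNAi EB 3 and control gut 2. Within it, 4453 of the 4922 differed at least 2-fold in the direction given. The direction there follows from the lack of overlap for nearly all of them, so this pair is no separate check of it. With these sets as a block in the 12-array fit, 5182 passed.

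Among the named transcripts, changes near 0 turned sign in some settings. CG7071/Muted was -0.04 with no further normalization, with or without the replicate block, and -0.05 with median centring. Uba1 was -0.11, -0.11 and -0.12 in these settings. The change of mio was 0.01 with array weights and 0.04 with the intensity sets as a block. With 1 array left out, Uba1 ran from -0.09 to 0.29, mio from -0.14 to 0.12, fend from -0.06 to 0.68, kis from -0.55 to 0.07 and SuUR from -0.34 to 0.07. CG10570/CG42502, measured at 1.61 log2 units with an adjusted p of 0.0929 in limma, passed in 8 other settings.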
